A study of Mus musculus with 6 samples.

Results

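The protease inhibitor genes described here are 10 in number: Slpi, the stefin A genes Stfa1, Stfa2, Stfa2l1 and Stfa3, the clade B serpins Serpinb1a and Serpinb2, and the cystatins Cst3, Cst7 and Cstb. They were chosen by name out of 55487 genes in the deposited table, with their values in these libraries already known, so their differences between groups are descriptions. Where it is said that such a gene passed a threshold, this places it in the fit over all genes and is no independent evidence of a difference. RNA of cells labelled as MLL-AF9 leukemia was compared between recipient mice given PBS and recipient mice given pIpC, 3 libraries each. Of 6 genes listed for these cells, 3 (Hoxa9, Meis1 and Hoxa10) were lower under pIpC and 2 were higher. Most listed markers of other blood cells were higher under pIpC, as given further on, and the share of leukemia cells in each library was not tested. Donor cells of both groups carried the same alleles, Mx1-Cre with Brd9fl/fl, together with the MLL-AF9 fusion oncogene (MA9 in the labels) and the CD45.2 marker, and the recipients were CD45.1(+) CD45.2(-) mice of the C57BL/6 strain. Starting 1 day after transplant, recipients received 3 doses of pIpC at 20 mg/kg or of PBS, and GFP+ marrow of femora and tibiae was collected at 10 days. Mx1-Cre is switched on by interferon, and pIpC, which mimics double-stranded RNA, raises interferon, so the drug and the intended deletion of Brd9 cannot be told apart in this design. The study's methods describe sorting on c-Kit, whereas the labels name GFP only, and the labels call the irradiation of recipients lethal where the methods call it sublethal.

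Protease inhibitors fall into families by fold. Slpi, the secretory leukocyte protease inhibitor, is a small secreted protein of the WAP family that blocks neutrophil elastase and cathepsin G, and clade B serpins are intracellular suicide inhibitors, of which SERPINB1 acts on the granule serine proteases of neutrophils. Stefins are small cytosolic inhibitors of cathepsins, the papain-like cysteine proteases of lysosomes, while cystatin C (Cst3) is secreted and cystatin F (Cst7) is carried to the lysosome, where cathepsin C is a known target. Mice carry a cluster of stefin A genes where humans carry a single one.

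The libraries held between 19277439 and 22378154 reads on genes in the PBS group and between 22348517 and 23586722 in the group labelled pIpC. Brd9, the gene meant to be deleted, had normalized counts of 1927, 1946 and 1632 in the PBS libraries and 2036, 2263 and 2011 in the libraries labelled pIpC. It was therefore not lower under pIpC (log2 difference 0.20 ± 0.13 (SE), adjusted p = 0.259 by limma, exact two-sided permutation p = 0.1, the smallest that 3 against 3 can give). These totals do not show the intended deletion, although a gene total does not show whether a floxed exon was lost. The study reports poor depletion of Brd9 in GFP+ marrow of those pIpC-treated mice that died early. PBS replicate 3 stood apart from the other PBS libraries and did so with exon length. Its log2 values exceeded the mean of PBS replicates 1 and 2 by a median of 0.82 for genes with under 1000 bases of exon and lay 0.34 below it for genes of 4000 bases and over (median -0.34). The 10 inhibitor genes have 412 to 2349 bases of exon, against a median of 3812 over the tested genes, and PBS replicate 3 was the highest PBS library for each of the 9 that were tested. For the 9 genes, values without that library are given beside the others, and the part of exon length in the differences was not tested.

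Of the 10 genes, 9 reached a mean normalized count of 10 and entered the fit by limma on log2(normalized count + 1). Adjusted p was under 0.1 for 6 of the 9, beside 45.3% of all 15020 genes tested. In the libraries labelled pIpC, Slpi, Stfa1, Stfa3 and Cstb were lower (4 of 9, beside 20.4% of all tested genes) and Serpinb1a and Cst7 were higher (2 of 9, beside 25.0%). The values of the groups did not overlap for 7 of the 9, which held for 56.8% of all tested genes. Stfa2, Stfa2l1 and Cst3 were not past the threshold, and Serpinb2 was too low to be tested. These shares describe genes that were picked with the contrast in view. In bulk RNA, fewer cells of a type and less RNA per cell cannot be told apart.

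**Figure D1:**
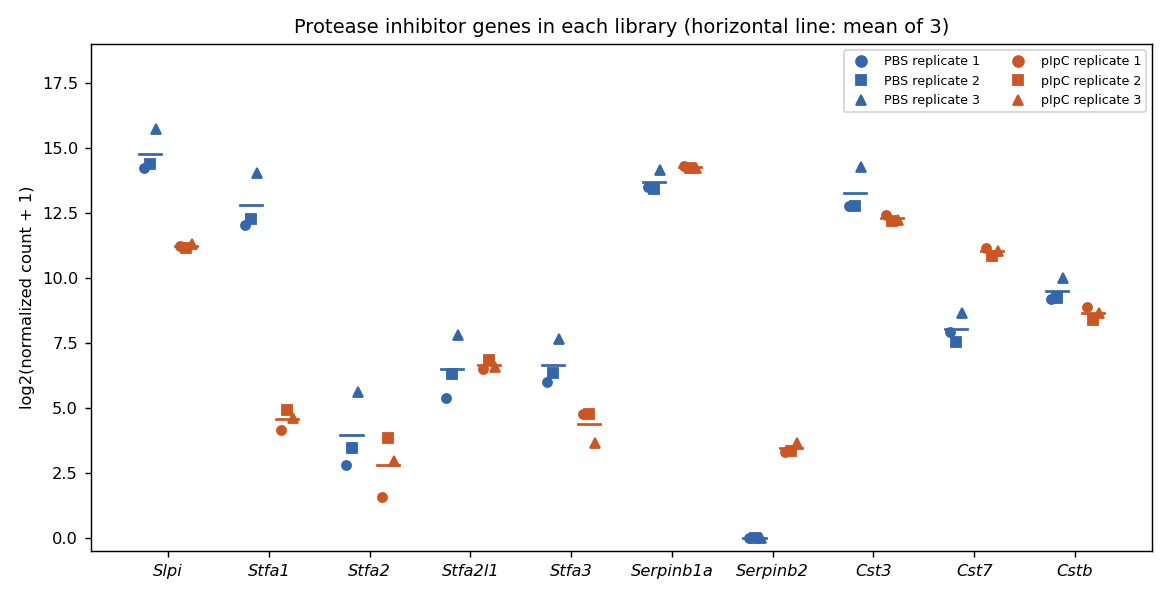
Level of the 10 protease inhibitor genes in each library, as log2(normalized count + 1), with PBS in blue, pIpC in orange, replicate 1 as a circle, 2 as a square and 3 as a triangle, and a horizontal line for the mean of 3 log2 values. Slpi and Stfa1 are lower and Cst7 is higher in all 3 libraries labelled pIpC, and the PBS triangle lies above the other PBS points for every gene but Serpinb2, which is at 0 in the 3 PBS libraries.

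Levels between genes are compared per kilobase of exon. In the PBS libraries Slpi stood highest of the 10 with 26681 ± 16346 normalized counts per kb (SD, n = 3), followed by Stfa1 with 12295 ± 10060, Cst3 with 8826 ± 5797 and Serpinb1a with 5875 ± 1808. The ranges of Slpi (16416 to 45530) and Stfa1 (5970 to 23896) overlapped, as did those of Stfa1 and Cst3 and those of Cst3 and Serpinb1a. These genes were measured in the same libraries, though, and the order Slpi, Stfa1, Cst3, Serpinb1a held within each of the 3 PBS libraries. Cstb stood at 1227 ± 417 per kb, clear of the genes on either side. Cst7, Stfa3 and Stfa2l1 lay together near 278 ± 111, 276 ± 181 and 273 ± 231 per kb, and Stfa2 lay lowest of the detected genes at 45.1 ± 48.5. In the libraries labelled pIpC the order was another. Serpinb1a led with 8577 ± 248 per kb and Cst3 followed with 3966 ± 343, then Cst7 with 2112 ± 208 and Slpi with 2031 ± 101, whose ranges overlapped. Stfa1 was down among Stfa3 and Stfa2, with 32.8 ± 8.92, 51.9 ± 20.5 and 15.6 ± 12.03 per kb. By mean level per kb, Slpi was number 39 of the 15020 tested genes in the PBS group and number 455 in the group labelled pIpC, and Stfa1 moved from number 104 to number 10718.

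Slpi (GRCm38 chr2:164354070-164389095, minus strand) had normalized counts of 19370, 21354 and 53726 in PBS replicates 1, 2 and 3. In the libraries labelled pIpC it had 2423, 2266 and 2501. Every PBS library was far above every library labelled pIpC, and the latter lay close together. The log2 difference was -3.55 ± 0.38 (SE), which is number 252 from the bottom among all tested genes, and without PBS replicate 3 it was -3.09. Slpi stayed a highly counted gene in both groups.

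None of the genes beside Slpi that lie outside its own span was lower past the threshold. Of 15 annotated genes within 100 kb on either side, Slpi included, 5 were over the filter. Mir7678 lies inside Slpi on the same strand, and its counts (188, 183 and 423 in PBS, 7.98, 7.15 and 11.6 in pIpC) cannot be told apart from reads of Slpi. Sdc4, the cell surface proteoglycan syndecan 4, rose from 0.865, 3.04 and 3.40 to 41.9, 59.3 and 91.9 (adjusted p = 7.0e-04 by limma). Sys1, a Golgi membrane protein gene, had 375, 337 and 832 in PBS and 355, 333 and 332 in pIpC, with groups that overlapped (log2 difference -0.47), and Dbndd2 had a log2 difference of -0.63 and was not past the threshold either.

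The 4 stefin A genes lie within 299 kb of chromosome 16, and the members of the cluster did not move alike. Stfa1 (chr16:36276951-36285373, plus strand) had normalized counts of 4239, 4984 and 16966 in PBS and 17.0, 29.6 and 23.2 in the libraries labelled pIpC. Every PBS library lay far above every library labelled pIpC. Its log2 difference of -8.23 ± 0.53 was number 10 from the bottom of the 15020 tested genes, and it was -7.60 without PBS replicate 3. Stfa3 (chr16:36450537-36455392, minus strand) had 62.3, 80.0 and 199 in PBS and 25.9, 26.6 and 11.6 in pIpC, again with no overlap, and a log2 difference of -2.26 ± 0.53 (-1.76 without PBS replicate 3).

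Stfa2l1 (chr16:36156811-36161953, plus strand) had 40.7, 79.0 and 224 in PBS and 89.8, 113 and 94.8 in pIpC. The pIpC values fell inside the PBS range, and the log2 difference of 0.14 ± 0.58 took its sign from the library and the scaling: it was 0.79 and past the threshold without PBS replicate 3, -0.43 without PBS replicate 1 and -0.02 after quantile normalization. Stfa2 (chr16:36403992-36408457, minus strand) had 6.06, 10.1 and 47.5 in PBS and 1.996, 13.3 and 6.77 in pIpC. Its groups overlapped and its log2 difference of -1.17 ± 0.88 was -0.35 without PBS replicate 3. After quantile normalization it was -2.20 and past the threshold, which was so in that alternative alone.

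Within these 4 stefin A genes the make-up of the transcripts therefore differed between the groups. Stfa1 made up 97.5%, 96.7% and 97.3% of the summed normalized counts of the 4 genes in PBS replicates 1, 2 and 3. In pIpC replicates 1, 2 and 3 it made up 12.6%, 16.2% and 17.0%, and Stfa2l1 made up 66.7%, 62.0% and 69.5%. Shares within a library do not depend on the scaling of that library. They do depend on the genes summed. With the neighbours BC100530, BC117090 and Gm5483 added, Stfa1 made up 69.1% over the PBS libraries together and 10.3% over those labelled pIpC. The sum of the 4 genes was 4348, 5153 and 17437 in PBS and 135, 183 and 136 in pIpC, a log2 difference of -5.60. The sum of the 3 genes other than Stfa1 overlapped between the groups, with 109, 169 and 471 in PBS and 118, 153 and 113 in pIpC.

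**Figure D2:**
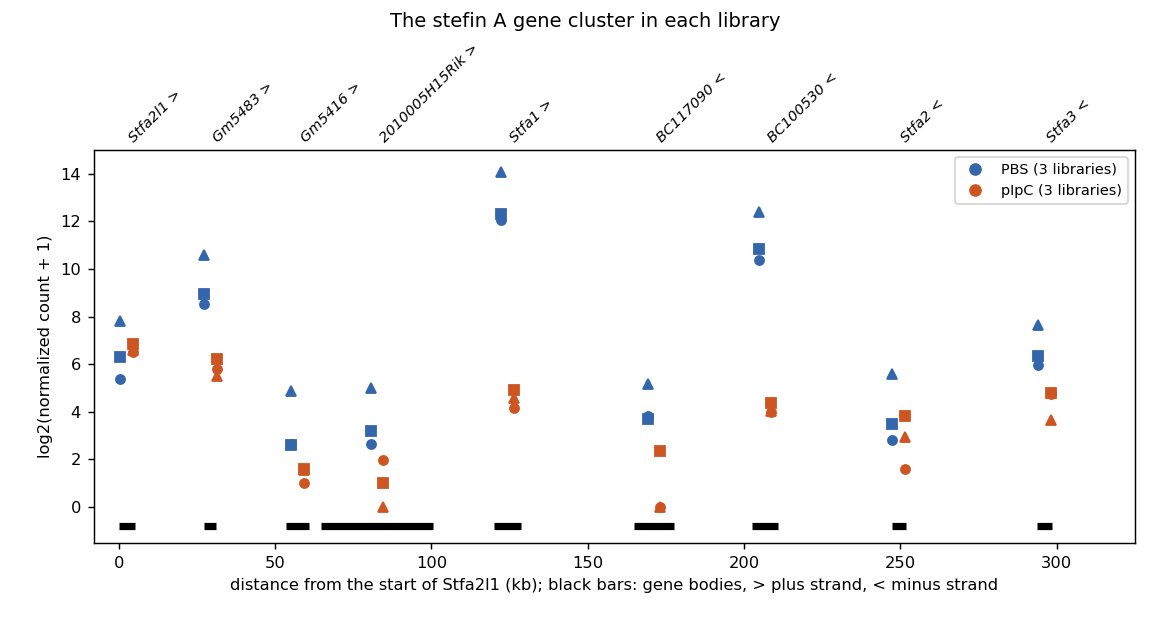
The stefin A cluster, with genes placed by distance in kb from the start of Stfa2l1 (horizontal axis, black bars for gene bodies) and log2(normalized count + 1) in each PBS (blue) and pIpC (orange) library on the vertical axis, where circles, squares and triangles are replicates 1, 2 and 3. Stfa1 and BC100530 show the widest gaps between the groups, and the points of Stfa2l1 and Stfa2 overlap.

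Other stefin-like genes lie among these 4. In the window from 50 kb before to 50 kb after the cluster, 7 genes were over the filter, these 4 among them. Of the 7, 5 were lower in the libraries labelled pIpC (20.4% of all tested genes were) and none was higher (25.0% of all were). Stfa2l1 and Stfa2 were not past the threshold. Stfa1 and Stfa3, among the 5, were picked with the contrast in view. BC100530 (chr16:36359382-36367748, minus strand) fell from 1308, 1804 and 5384 to 14.97, 19.4 and 15.5 (log2 difference -7.06 ± 0.50, adjusted p = 1.0e-04 by limma). Gm5483 (chr16:36184212-36188111, plus strand) fell from 369, 495 and 1555 to 54.9, 73.6 and 44.5 (-3.52 ± 0.53). BC117090 fell from 12.98, 12.1 and 35.1 to 0, 4.09 and 0 (-3.45 ± 0.79, and -5.68 to -1.34 over the other fits). The flanking genes Csta1 and Casr had almost no reads in either group.

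These paralogs are close enough in sequence for reads to be shared. The coding sequence of Stfa1 was 98.0% identical to that of BC100530, 79.8% to that of Stfa3, 74.7% to that of Stfa2 and 73.4% to that of Stfa2l1, while Stfa2 and Stfa2l1 were 96.5% identical to each other. Stretches of 100 bases found word for word in another gene made up 5.07% of Stfa1 (shared most with BC100530), 9.49% of BC100530, 13.5% of BC117090 (the latter pair shared most with each other), 2.47% of Gm5483 and none of Stfa2, Stfa2l1 and Stfa3. The split of reads among Stfa1, BC100530 and BC117090 is therefore uncertain, and so are their separate values. The first 60 coding bases of the pairs that are most alike are shown because they let a reader see how little separates genes whose counts moved together (Stfa1 and BC100530) and how close Stfa2 and Stfa2l1 are. Capitals mark the bases that differ within a pair, 2 in the Stfa1 pair and 5 in the Stfa2 pair, and the sequences come from the GENCODE M21 transcripts.
Stfa1: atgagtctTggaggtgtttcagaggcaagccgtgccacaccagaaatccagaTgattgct
BC100530: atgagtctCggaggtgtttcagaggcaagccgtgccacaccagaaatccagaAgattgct
Stfa2: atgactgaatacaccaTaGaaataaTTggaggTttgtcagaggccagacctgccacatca
Stfa2l1: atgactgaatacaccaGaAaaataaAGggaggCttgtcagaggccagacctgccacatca

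The 100 bases before the RefSeq start of each gene are shown for 6 genes of the cluster, since they set genes with large log2 differences beside Stfa2 and Stfa2l1, which were not past the threshold in the main fit. RefSeq sequences on GRCm38.p6 were matched by symbol for 4 of them, by synonym for Gm5483 (Cstdc4) and by position for BC100530 (Cstdc5). RefSeq starts differ from the gene spans given above. The windows of Stfa1 and BC100530 lie inside those spans, and so does most of that of Stfa2, while the other windows lie just before the gene. Capitals mark the longest stretch that all 6 windows hold, 12 bases on the gene's own strand, ACCTTTAAAACC, found by searching both strands in 10 of 32851 RefSeq windows (0.0304%). These 6 windows are among the 10. As the stretch was picked from them, its rarity over all windows is no result about these genes.
Stfa1, chr16:36277048-36277147, plus strand: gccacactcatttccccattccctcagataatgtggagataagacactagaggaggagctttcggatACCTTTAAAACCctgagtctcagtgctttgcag
BC100530, chr16:36367571-36367670, minus strand: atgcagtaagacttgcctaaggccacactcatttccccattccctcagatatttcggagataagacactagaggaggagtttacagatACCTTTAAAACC
Gm5483, chr16:36184112-36184211, plus strand: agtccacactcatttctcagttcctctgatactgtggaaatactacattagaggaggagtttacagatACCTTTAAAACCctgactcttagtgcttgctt
Stfa3, chr16:36455393-36455492, minus strand: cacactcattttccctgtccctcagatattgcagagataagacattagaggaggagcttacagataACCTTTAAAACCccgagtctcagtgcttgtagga
Stfa2, chr16:36408364-36408463, minus strand: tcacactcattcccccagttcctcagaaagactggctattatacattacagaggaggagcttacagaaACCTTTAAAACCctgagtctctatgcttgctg
Stfa2l1, chr16:36156711-36156810, plus strand: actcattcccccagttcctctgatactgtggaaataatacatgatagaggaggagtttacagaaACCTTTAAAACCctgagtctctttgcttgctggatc

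The shared stretch ended 22 bases before the start in Stfa1 (positions -33 to -22), 21 bases in Stfa2 and Gm5483, 23 in Stfa3 and 25 in Stfa2l1, and at the last base of the window in BC100530. Stfa1 and Stfa2l1, with log2 differences of -8.23 and 0.14, both held it, and its part in these differences was not tested. The windows of Stfa3, Gm5483, Stfa2 and Stfa2l1 were 83.5%, 79.4%, 77.5% and 75.2% identical to that of Stfa1, and that of BC100530, whose start lies nearer to the shared stretch, was 60.3% identical. Searched on both strands, GAGGAA, the core read by the myeloid factor PU.1, was present in the windows of Stfa2, Stfa2l1 and Gm5483 and in 9.82% of all windows, and TTGCNNAA, a form of the C/EBP motif, was present in that of BC100530 and in 3.43% of all windows. A match is a description of letters only.

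Among the clade B serpins, Serpinb1a (chr13, minus strand) had normalized counts of 11434, 10832 and 18326 in PBS and 20410, 19387 and 19460 in the libraries labelled pIpC. All 3 of the latter were above all PBS libraries, though PBS replicate 3 came close. The log2 difference was 0.59 ± 0.22 (0.83 without PBS replicate 3), and it passed the threshold under 7 of 17 other settings. It was the most counted of the 10 genes per kb under pIpC, as given above. Serpinb2, which encodes the urokinase inhibitor PAI-2, had 0 reads in all 3 PBS libraries and 9, 9 and 12 reads in pIpC replicates 1, 2 and 3. Against a floor of 3 reads in each PBS library it was at least 3.30-fold higher, a bound that covers counting error only. Its exons overlap those of Serpinb10 on the same strand, and 7.52% of its stretches of 100 bases are also found in another gene, most often in that one. Reads of this pair of genes may be split between them, and Serpinb10 rose, with values given further on.

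Among the cystatins, Cst7 (chr2, plus strand) had 241, 185 and 396 in PBS and 2265, 1859 and 2123 in pIpC. Each library labelled pIpC lay well above the highest PBS value, and the log2 difference was 2.99 ± 0.28 (3.29 without PBS replicate 3). Cst3 (chr2, minus strand) had 6887, 6985 and 19648 in PBS and 5518, 4720 and 4825 in pIpC. The groups did not overlap, and PBS replicate 3 stood well above the other PBS libraries. The log2 difference of -0.97 ± 0.40 was not past the threshold, and it was -0.47 and past the threshold without PBS replicate 3. Cstb, stefin B, lies outside the stefin A cluster and had 587, 602 and 1030 in PBS and 474, 331 and 404 in pIpC, again with no overlap (-0.84 ± 0.26, and -0.58 without PBS replicate 3). After each library's trend with exon length was removed, the value for Cstb was -0.39, that for Cst3 was -0.65 and that for Cst7 was 3.36.

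**Figure D3:**
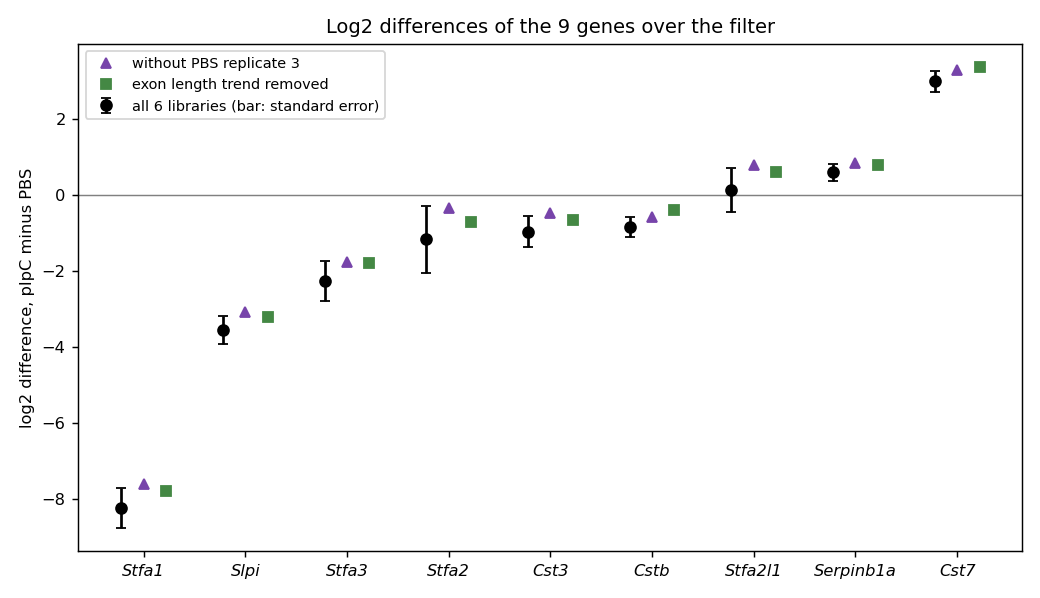
Log2 difference, pIpC minus PBS, of the 9 genes over the filter, with the standard error in black for all 6 libraries, a triangle for the value without PBS replicate 3 and a square for the value after the exon length trend was removed. Stfa1, Slpi and Stfa3 stay below -1.7 and Cst7 above 2.9 in the 3 estimates, and Stfa2l1 ranges from 0.14 to 0.79.

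Ratios within a library are free of that library's scaling, and they set inhibitor genes beside protease genes. They are not free of the trend with exon length in PBS replicate 3 where the genes differ in length. Slpi has 1180 bases of exon and Serpinb1a 2303, for example, and the part of length in the ratios was not tested. Proteinase 3 is summed below with elastase and cathepsin G, though it is not among the Slpi targets named above. Slpi stood at 0.202, 0.201 and 0.281 of the summed level per kb of Elane, Prtn3 and Ctsg, the neutrophil serine proteases elastase, proteinase 3 and cathepsin G, in PBS replicates 1, 2 and 3. In pIpC replicates 1, 2 and 3 it stood at 0.0216, 0.0219 and 0.0239. The lowest PBS ratio was thus many times the highest ratio under pIpC. For Serpinb1a over the same proteases the ratio was 0.0611, 0.0523 and 0.0491 in PBS and 0.0933, 0.0961 and 0.0953 in pIpC, without overlap and in the opposite direction. Slpi over Serpinb1a was 3.31, 3.85 and 5.72 in PBS and 0.232, 0.228 and 0.251 in pIpC, so the order of these inhibitors per kb was turned around. Cst7 over Ctsc, its known target cathepsin C, was 9.30, 8.84 and 12.2 in PBS and 8.75, 10.6 and 12.3 in pIpC, with overlapping values, as both genes were higher under pIpC. Cst3 over Cst7 was 22.3, 29.4 and 38.6 in PBS and 1.90, 1.98 and 1.77 in pIpC.

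**Figure D4:**
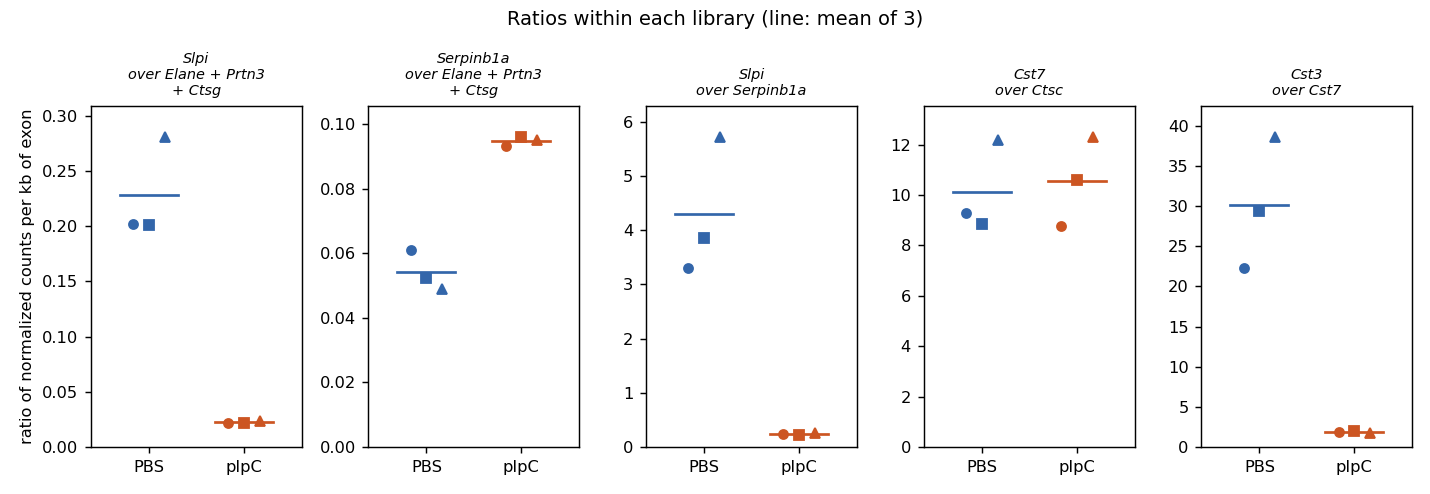
Ratios of normalized counts per kb of exon within each library (vertical axis, from 0, a scale for each panel), with PBS in blue, pIpC in orange, replicates 1, 2 and 3 as circle, square and triangle, and a line for the mean of 3. Slpi over the neutrophil serine proteases and over Serpinb1a is lower, and Serpinb1a over the proteases is higher, in each library labelled pIpC, and Cst7 over Ctsc overlaps.

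The proteases themselves moved in both directions. Of 18 listed proteases, 16 were tested, of which 7 were higher (25.0% of all tested genes were), 3 lower (20.4% of all) and 6 not past the threshold (median log2 difference 0.35, beside 0.01 over all tested genes). Elane had 51669, 59448 and 108326 in PBS and 51557, 48408 and 51984 in pIpC and overlapped between groups. Its log2 difference of -0.45 ± 0.30 was -0.13 without PBS replicate 3, and it was past the threshold after quantile normalization (-0.78) and with equal column totals (-0.59). Prtn3 overlapped too (-0.08 ± 0.34, and 0.30 and past the threshold without PBS replicate 3), and Ctsg was higher by 0.44 ± 0.17, past the threshold under 6 of 17 other settings. Of the cysteine cathepsins, Ctsc rose from 152, 123.5 and 191 to 1524, 1034 and 1016 (2.92 ± 0.24) and Ctss from 353, 271 and 416 to 1281, 832 and 773 (1.45 ± 0.25). Ctsh was lower, with -0.88 ± 0.31 and adjusted p = 0.0662 by limma (-0.50 without PBS replicate 3). Ctsb (0.24) and Ctsl (0.27) were not past the threshold, but Ctsb was without PBS replicate 3 (0.39). Plau, which encodes urokinase, the protease that PAI-2 blocks, rose from 38.9, 47.6 and 38.5 to 1018, 1079 and 1087 (4.64 ± 0.16).

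Beyond the 10 genes, 121 other genes of protease inhibitor families were found in the table. They were listed by family, and not every one is known to block a protease, so they are called inhibitor genes for short only. Of these, 25 were tested, of which 13 were higher (25.0% of all tested genes were), 7 lower (20.4% of all) and 5 not past the threshold. Their median log2 difference was 0.87 (all tested genes 0.01), which is the value of Serpinh1, from the list of secreted serpins. All 4 tested clade B serpins rose. Serpinb10 went from 3.46, 8.10 and 13.6 to 665, 760 and 1082 (6.61 ± 0.45). Serpinb6b went from 0, 2.02 and 0 to 37.9, 43.9 and 46.4 (4.91 ± 0.54, and 2.31 to 7.27 over the other fits). Serpinb6a (1.16 ± 0.32, and 1.53 without PBS replicate 3) and Serpinb9, an inhibitor of granzyme B (0.83 ± 0.21), rose less. Of 8 tested genes listed as secreted serpins 5 rose, among them Serpinf1 (3.78), Serpina3g (3.71) and Serpine2 (3.60). Of these, Serpine2 encodes an inhibitor of thrombin and urokinase. Serpina11 went the other way, from 104, 134 and 240 to no reads in all 3 libraries labelled pIpC, and was at least 53.3-fold lower against a floor of 3 reads in each library.

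All 3 other stefins that could be tested fell, and they are the cluster genes described above. Among 7 tested genes with WAP, Kunitz or Kazal domains, 1 rose and 3 fell, beside 25.0% and 20.4% of all tested genes. Wfdc21, a relative of Slpi in the WAP family, rose from 54.5, 69.8 and 103 to 7371, 7187 and 7416 (6.62 ± 0.23). Wfdc17, another WAP gene, fell from 2028, 1722 and 5102 to 163, 89.9 and 48.3 (-4.86 ± 0.55). Tfpi, the inhibitor of the tissue factor pathway of coagulation, fell by 0.94 on the log2 scale (SE 0.22). The 3 tested inhibitors of metalloproteases rose. Timp3 went from 2.60, 2.02 and 0 to 62.9, 64.4 and 50.3 (4.76 ± 0.55, and 2.58 to 6.15 over the other fits). Reck rose by 4.14 ± 0.28, and Timp2 went from 68.4, 60.7 and 129 to 685, 920 and 894 (3.33 ± 0.31).

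**Figure D5:**
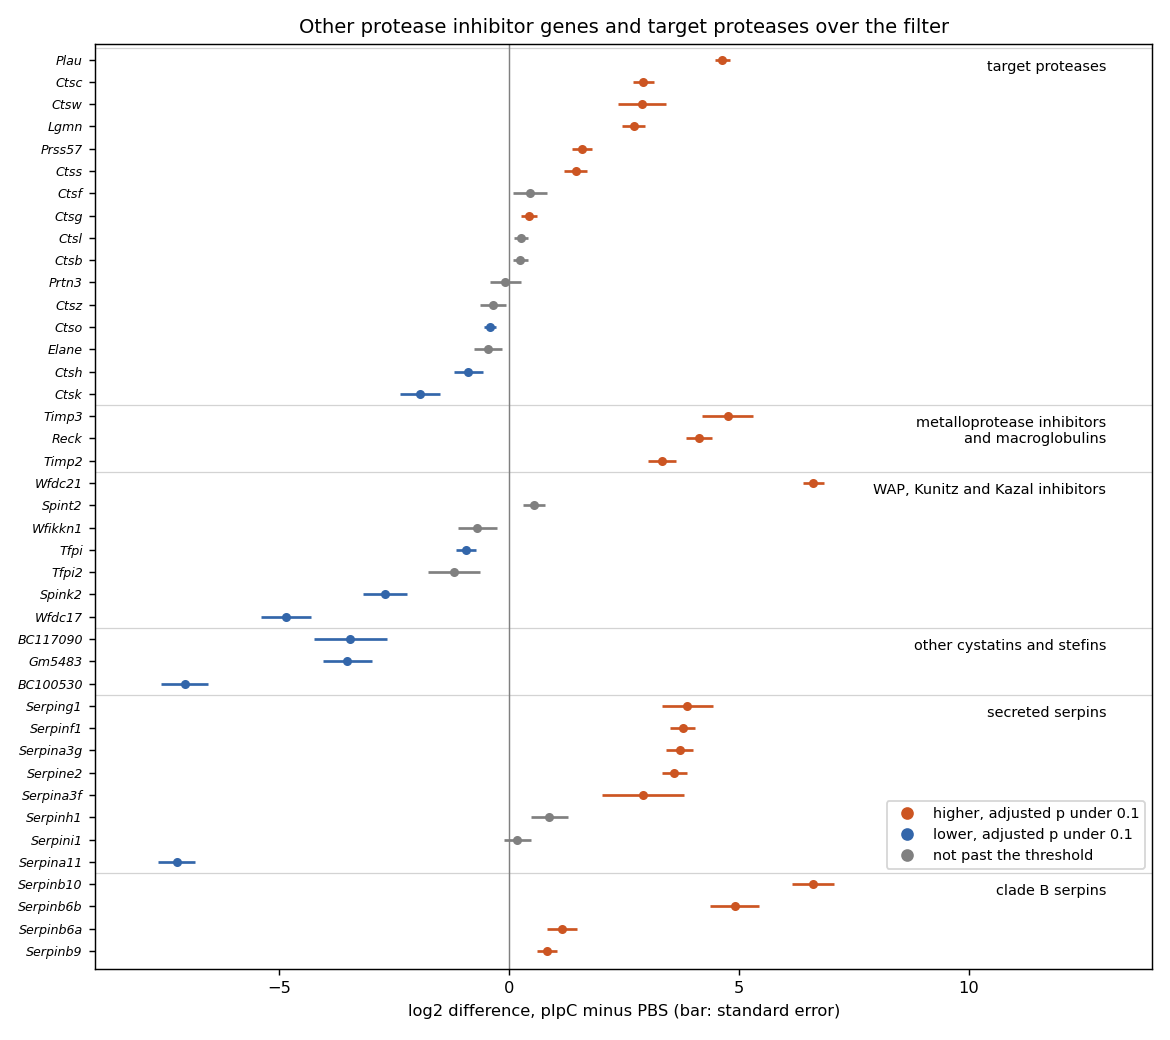
Log2 difference, pIpC minus PBS (horizontal axis, with standard error), of the tested genes of 5 lists of protease inhibitor families and of the target proteases. Points are orange or blue where adjusted p was under 0.1 (limma) and grey otherwise. Clade B serpins and metalloprotease inhibitors lie to the right of 0, the 3 stefins of the cluster to the left, and WAP genes at both ends (Wfdc21 at 6.62, Wfdc17 at -4.86).

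Markers of other blood cells moved with the groups, and their part in the inhibitor values was not tested. Over all tested genes, 25.0% were higher and 20.4% lower. All 12 neutrophil markers were higher under pIpC, from Mmp9 (3.23) to Ly6g (8.23), and their summed normalized counts were 20719 to 42427 in PBS and 2092160 to 2150770 in pIpC. None of them was at 0 in the PBS group. Of 12 macrophage markers 10 were higher, up to Spic (5.55), and 2 lower, led by Adgre1 (-3.80), with sums of 10355 to 14712 in PBS and 7227 to 9707 in pIpC. All 11 erythroid markers were higher, from Alas2 (3.26) to Hbb-bs (8.52), with sums of 23.4 to 38.5 and 4716 to 6908, and Slc4a1 and Rhag were at 0 in every PBS library. All 9 B cell markers were higher, from Cd79b (1.25) to Pax5 (7.41), with sums of 143 to 307 and 1392 to 2426 and Ms4a1 at 0 in PBS. Of 7 tested T and NK cell markers 6 were higher, up to Ncr1 (4.79), and Bcl11b was lower (-7.12), with sums of 737 to 758 and 3942 to 4570. Of 6 basophil and mast cell markers 4 were higher, up to Prss34 (10.76), and Gata2 was lower (-1.18), with sums of 2103 to 3524 and 5035 to 7285 and Fcer1a at 0 in PBS. Prss34 and Pax5 were close to 0 in PBS, and their log2 differences ran from 7.73 to 13.3 and from 4.41 to 9.93 over the other fits. Of 6 genes for the labelled leukemia cells, Hoxa9, Meis1 and Hoxa10 (-6.38) were lower, Ptprc and Itgam (1.45) were higher and Kit was not past the threshold.

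The genes most like Slpi across the 6 libraries, by Pearson's r of log2 values over 11670 genes with a mean of at least 50, were Angptl4, Gstk1, Mgmt, Gm34084 and Nle1. Gstk1, a glutathione transferase, had 397, 454 and 992 in PBS and 62.9, 58.2 and 56.1 in pIpC, and Mgmt, a DNA repair methyltransferase, had 254, 262 and 582 and then 49.9, 52.1 and 49.3. Those most like the summed stefin A genes were Mex3d, Phldb3, Smpdl3a, BC100530 and Naa35. Smpdl3a, a phosphodiesterase gene, had 5818, 5870 and 7835 in PBS and 2102, 2330 and 2217 in pIpC. Each r was at least 0.998 over 6 libraries that fall into 2 groups without overlap for these genes, with PBS replicate 3 the highest of its group in each, and it is given as a description.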

How the data were processed

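RNA-seq values of 6 libraries (3 PBS, 3 pIpC) came from 1 deposited table of normalized counts for 55487 genes. This signal, as its values show, was made by the authors by scaling read counts by 1 factor for each library. The labels' processing notes name HISAT2 2.2.1, SAMtools, featureCounts of Subread and edgeR on GRCm38, and the study's methods name nf-core/rnaseq with STAR, RSEM and DESeq2. Which of them made the table is not given in the sources used here. The labels state unstranded libraries and the methods a stranded kit. No per-sample column was left out (0 unused). Gene IDs gave a symbol for 55141 genes, and positions and exon lengths came from GENCODE M21.

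Division by the value of 1 read in each library gave whole numbers for 100% of values above 0 (tolerance 0.1), taken as reads. For pIpC replicate 1 this value (0.998) is close to 1 and the recovery did not pass a separate check, so edgeR and DESeq2 were run on the other 5 libraries only. The main test was limma 3.58.1 (R 4.3.3) without a replicate block and with its intensity trend, on log2(normalized count + 1) for 15020 genes with a mean of at least 10, with Benjamini-Hochberg adjusted p under 0.1. edgeR 4.0.16 (quasi-likelihood) and DESeq2 1.42.0 were alternatives, and all 3 were tested on simulated data. The labels do not say that samples of a group came from separate mice, so p-values measure the spread between these samples. No pair of libraries within a group agreed within sampling noise.

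The inhibitor genes, lists and tests were chosen with earlier results of these data known. Named genes are the 10 inhibitors, Brd9, the 3 largest rises and falls of each inhibitor list with a mean of at least 50, genes within 50 kb of the stefin A genes or 100 kb of Slpi, 9 proteases, the 5 genes most like Slpi or the stefin sum, and the highest and lowest of each marker list. Serpinb6b, Timp3, Csta1, Casr, Hoxa9, Meis1, Ptprc, Kit and the markers at 0 were named after their values were seen. Alternatives were the pseudocount (0.1, 10), the filter (none, 50), quantile normalization, equal column totals, a replicate block, each library left out, both count tests, adjusted p under 0.05 and, added after seeing the data, removal of the exon length trend and limma without the intensity trend.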

Additional observations from a re-analysis of the deposited data

How the results depend on the processing

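Slpi, Stfa1, Stfa3 and Cst7 kept their direction and their side of the threshold in all 17 other fits, which is no evidence beyond the choice of these genes. Their log2 differences ranged from -3.82 to -3.09, from -8.60 to -7.60, from -2.69 to -1.76 and from 2.75 to 3.36. Cstb passed in 15 of 17 (-1.03 to -0.39), Cst3 in 8 of 17 (-1.25 to -0.47) and Serpinb1a in 7 of 17 (0.45 to 0.83). Stfa2l1 ranged from -0.43 to 0.79, past the threshold only without PBS replicate 3, and Stfa2 from -2.20 to -0.35, past it only after quantile normalization.

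Genes higher among the 10 inhibitors numbered 1 in place of 2 with edgeR and with DESeq2 on 5 libraries, without the intensity trend and at adjusted p under 0.05, and 1 to 3 with single libraries left out. With the replicate block that number was also 1, without Serpinb1a, and the block gave 6095 calls in all in place of 6808. The numbers do not pair the libraries: deviations of same-numbered libraries from their group means correlated at -0.117, 0.143 and 0.041, and 2 of 6 libraries correlated best with their own number. With no filter, 32 other inhibitor genes were called (21 higher, 11 lower) in place of 20 (13 higher, 7 lower). Fewer target proteases were lower with edgeR (1 in place of 3) and with single libraries left out (1 to 3). Over all genes, leaving out single libraries gave 4650 calls (without pIpC replicate 2) to 9783 (without PBS replicate 3), with 1860 to 4597 lower, and edgeR gave 5057. Prtn3 turned from -0.08 to 0.14 after quantile normalization and 0.17 after removal of the exon length trend, and ranged from -0.32 to 0.30 with single libraries left out. Brd9 ranged from 0.12 to 0.24 with single libraries left out and was never called. Quantile normalization moved the median log2 difference of all genes from 0.01 to -0.12. The 4 stefin A genes taken as 1 sum gave -5.60 against -8.23 for Stfa1, since the sum under pIpC is mostly Stfa2l1. The cause of the other changes was not tested. Stfa2 and Serpinb2 rest on the fewest reads of the 10 genes, and Serpinb2 entered only the fit with no filter.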
